A study of Mus musculus with 24 samples.

Results

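The genes described here encode factors of gonadal cell fate and their relatives: the forkhead gene Foxl2, the runt-domain genes Runx1, Runx2 and Runx3 with their common partner Cbfb, and the DM-domain genes Dmrt1, Dmrt2, Dmrt3 and Dmrta1. They were taken by symbol, 9 of the 32040 gene symbols in the deposited tables. The rule itself used no measured value, but these genes and the gene lists below were chosen with earlier results of these data known. All 9 were listed in both tables, and 8 of the 9 passed the count filter for testing, the exception being Runx3.

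The study measured polyA RNA of supporting cells sorted by fluorescence from mouse fetal gonads, in 8 groups of 3 libraries each. The XX groups were female pre-granulosa cells of the Tg(Enh8-mCherry) line from 4 stages named by embryonic day, E11.5 and E15.5 with E12.5 and E13.5 between them. The XY groups were male Sertoli cells of the SOX9-IRES-GFP line at the same stages, a reporter read from the Sox9 locus, so Sox9 itself served the sort. Sex, reporter line and fluorophore changed together and cannot be told apart in any comparison of XX with XY. The labels do not say which gene Enh8 belongs to, nor whether embryos were pooled or came from separate litters, so p-values here measure only the spread between these libraries. Replicate 1 of XX E13.5 is named E13.5 in its title and description but E12.5 in its stage field, and was kept as E13.5.

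Supporting cells of the fetal gonad start from a common precursor and become Sertoli cells in the testis or pre-granulosa cells in the ovary. FOXL2 is a forkhead transcription factor known for holding ovarian granulosa identity, and DMRT1 is a DM-domain factor known for holding Sertoli identity in the testis. RUNX proteins bind DNA through the runt domain together with CBFB, which does not bind DNA itself, and RUNX1 is known to act beside FOXL2 in fetal granulosa cells.

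Total counts ran from 11275277 to 37256871 per library, at which 3 counts corresponded to 0.0774 to 0.260 CPM (normalised read counts per 1e+06, scaled by trimmed mean of M values). Marker sums went with the labelled cell types within each stage. The summed TPM (abundance scaled for transcript length and library size) of 14 pre-granulosa genes was 756 to 1962 in the XX libraries and 367 to 783 in the XY libraries, overlapping only between stages. Of 13 tested, 9, 11, 12 and 12 were higher in XX and 3, 0, 1 and 1 lower in order of stage, with an adjusted p under 0.05. Esr2 was lower at E11.5 (log2 difference -1.29) and E15.5 (-1.50), and Ctnnb1 at E11.5 (-0.28) and E13.5 (-0.70). The sum of 13 Sertoli genes was 1635 to 11140 in XY and 154 to 866 in XX. It includes Sox9, which served the sort, and no sum without Sox9 is given. Markers of other cells differed between the sorts. The 10 immune markers summed to 48.0 to 578 TPM in XX and 0.400 to 3.59 TPM in XY. The 7 erythroid markers in the table summed to 7490 to 63208 TPM in XX E11.5 and 36.2 to 72.4 TPM in XY E11.5. Replicate 2 of XX E11.5 stood apart from the other 2 libraries of its group, with the most pre-granulosa RNA (1292 TPM against 974 and 756) and the least Sertoli (507 TPM against 866 and 689), interstitial (138 against 290 and 713) and erythroid RNA (7490 against 26365 and 63208). Foxl2 and Dmrt1 results that it moves are given with and without it.

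Between the sexes, the 9 genes formed a female-high pair, Foxl2 and Runx1, and a male-high pair, Dmrt1 and Dmrt3, while Dmrta1 and Dmrt2 changed their relation to sex with stage. Of the 8 genes tested, 5 differed between XX and XY in the E11.5 libraries (3 higher in XX), 6 a day later (4 higher in XX), 6 in the E13.5 libraries (3 higher in XX) and 4 at the last stage (2 higher in XX), with an adjusted p under 0.05. Over all 16190 genes tested, the share called was 42.0%, 62.1%, 66.1% and 69.4% in order of stage, so that a call by itself was common throughout. The share called higher in XX was 21.4%, 30.5%, 32.8% and 34.9%, and the share called lower was 20.6%, 31.5%, 33.3% and 34.4%. The median log2 difference of the 8 genes was 0.27, 0.87, 0.78 and -0.20 in order of stage, beside 0.02, -0.01, 0.01 and 0.05 over all genes. Of the 21 sex differences called, 20 passed the threshold under every alternative that gave a value, the exception being Dmrt1 at E11.5.

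**Figure D1:**
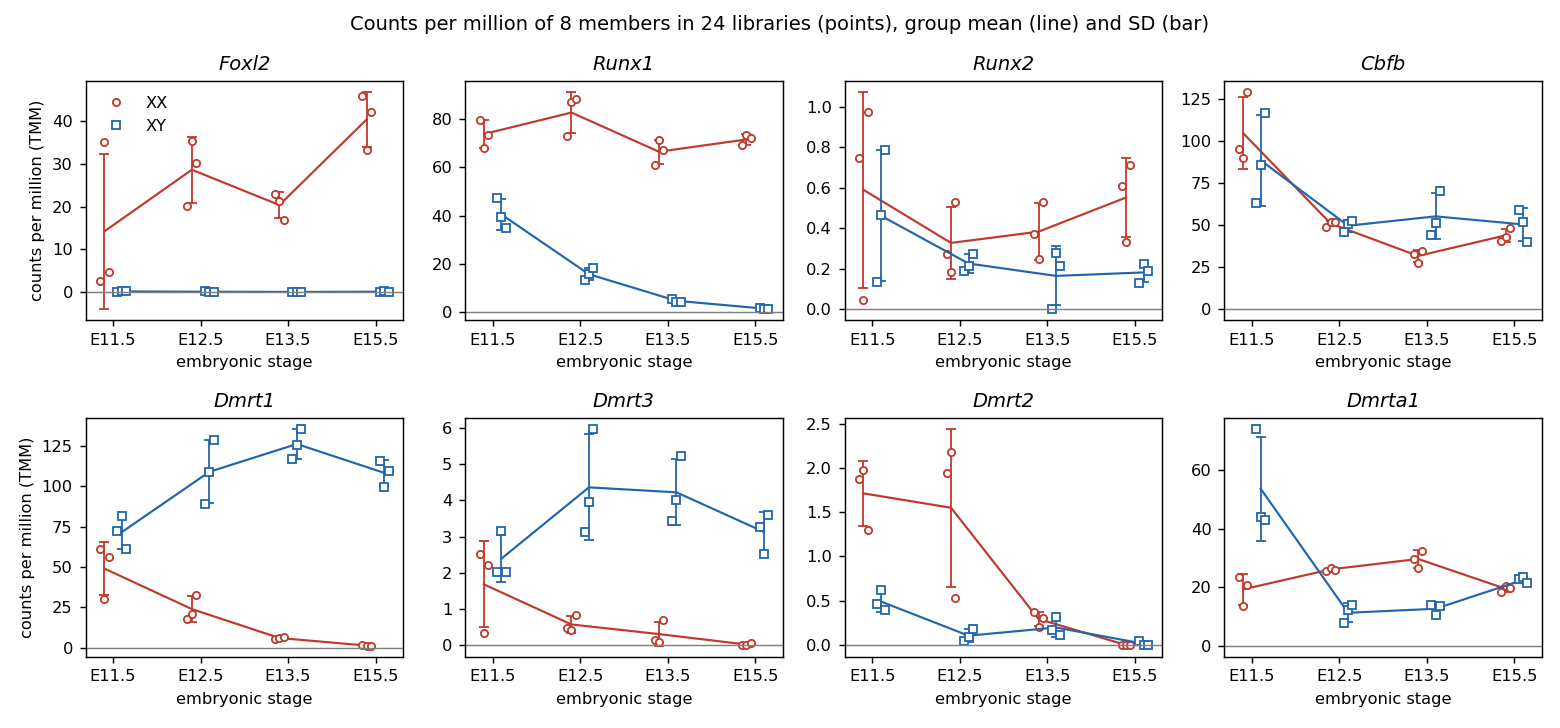
Normalised CPM (vertical axis, linear, a different range in each panel) of the 8 genes tested at the 4 embryonic stages, with circles for the 12 XX libraries, squares for the 12 XY libraries, lines through the group means and bars of 1 SD (n = 3). Runx1 stays between 61.2 and 88.3 CPM in XX and falls to 1.2 to 1.65 CPM in XY, Dmrt1 shows the opposite course, and Dmrta1 lines cross between E11.5 and E12.5.

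Foxl2 (ENSMUSG00000050397, chr9:98955288-98958543 on the plus strand of GRCm38) was read in XX libraries and almost not at all in XY libraries. The XX libraries held 2.62, 35.2 and 4.73 CPM (E11.5), 20.2, 35.5 and 30.3 CPM (E12.5), 22.9, 21.4 and 16.8 CPM (E13.5) and 45.8, 33.4 and 42.2 CPM (E15.5). It was listed at 0 in all 3 XY libraries of E13.5, and no XY library exceeded 0.261 CPM. The sexes did not overlap at any stage, whereas each XX group overlapped the next in the order of means, with E15.5 highest and E11.5 lowest. The XX mean was 117-fold that of XY at E11.5, and at least 211-fold, 156-fold and 249-fold higher at the 3 later stages in turn, where XY means lay at or under the level of 3 counts per library. Without replicate 2 of XX E11.5 the fold at that stage was 30.3. The fitted log2 difference at E11.5 was 6.81 (SE 0.95, adjusted p = 1.72e-05, and 4.82 without that library, 3.59e-06, edgeR quasi-likelihood test with Benjamini-Hochberg adjustment, which is the test of every adjusted p below unless another is named).

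Whether Foxl2 was called to change within XX depended on 1 library and on the method. With all libraries, the steps were 1.0 from E11.5 to E12.5 (adjusted p = 0.224), -0.49 to E13.5 (adjusted p = 0.587) and 0.99 to E15.5 (adjusted p = 0.254) on the log2 scale, and the test of any change over the 4 stages gave an adjusted p of 0.148. Limma on log2(TPM + 1), also with all libraries, called the first step at 1.59 (adjusted p = 0.00641) and the change over stages (0.00258), and edgeR with only the libraries compared called the last step at 0.98 (adjusted p = 0.000298). Without replicate 2 of XX E11.5, the E11.5 mean was 3.68 CPM in place of 14.2 CPM, the first step was 2.97 (adjusted p = 1.5e-05), the last was 0.95 (adjusted p = 0.024) and the test over stages gave 9.0e-06.

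That library held the highest CPM of Foxl2 and Dmrt2 in its group and the lowest Runx1, Runx2, Cbfb, Dmrt1, Dmrt3 and Dmrta1, beside the marker sums given above. In bulk RNA, more cells of a type and more RNA per cell cannot be told apart. The change of the sex difference of Foxl2 with stage had an adjusted p of 0.47 with all libraries, 0.0304 with limma on log2(TPM + 1) and 0.0059 without that library.

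The antisense gene Foxl2os (chr9:98949781-98955299, minus strand) overlaps the start of Foxl2 by 12 bp. It was read at mean CPM of 0.978, 2.38, 2.85 and 4.46 in XX and 0.0812, 0.0311, 0 and 0 in XY, in order of stage, and was called higher in XX at all 4 stages (adjusted p from 1.63e-06 to 0.00123). Whether the counting used strand is not given in the sources used here, so reads of the overlap cannot be assigned to one gene or the other. Over the 8 group means of log2(CPM + 1), Foxl2os had a Pearson r of 0.980 with Foxl2. Placed against 10871 genes of at least 10 CPM in 1 group, a level it did not reach, this r would rank 26. The 3 genes most like Foxl2 were Sertad3 (r = 0.993), Rit1 (r = 0.991) and Wfdc1 (r = 0.991), all descriptions over 8 groups in which XX and XY form separate clusters.

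Runx1 (ENSMUSG00000022952, chr16:92601466-92826149, minus strand) stayed high in XX and was lost step by step in XY. The XX libraries held 79.9, 68.1 and 73.6 CPM (E11.5), 72.9, 87.1 and 88.3 CPM (E12.5), 61.2, 71.2 and 67.1 CPM (E13.5), and 69.1, 73.4 and 72.3 CPM (E15.5). The XY libraries held 47.2, 39.4 and 34.7 CPM, then 13.1, 15.6 and 18.2 CPM, then 5.31, 4.26 and 4.29 CPM, and last 1.65, 1.23 and 1.2 CPM. All 12 XX libraries lay above all 12 XY libraries, the XX groups overlapped one another along the order of means, and the 4 XY groups were ordered by stage with no overlap.

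The XX mean of Runx1 was 1.83-fold that of XY at E11.5 (log2 difference 0.87, SE 0.13, adjusted p = 1.42e-05), 5.29-fold at E12.5 (2.40, SE 0.14), 14.4-fold at E13.5 (3.86, SE 0.15) and 52.6-fold at E15.5 (5.69, SE 0.17, adjusted p = 1.69e-16). Over the alternatives, the adjusted p of the E11.5 difference reached 0.038. The widening came from XY, where Runx1 fell at each step, by 1.37, 1.77 and 1.73 on the log2 scale (adjusted p = 2.34e-08, 5.29e-08 and 8.63e-07), a 29.7-fold fall from E11.5 to E15.5. Within XX none of the steps was called, at 0.16, -0.31 (adjusted p = 0.0639) and 0.11, although the E13.5 libraries all lay below the E12.5 libraries. That middle XX step was called with only the libraries compared (-0.29, adjusted p = 0.0298), when any of 9 single libraries was left out (adjusted p from 0.024 to 0.0498) and with limma on log2(TPM + 1) (-0.68, adjusted p = 0.00232, with a median over all genes of -0.17). Among those 9, leaving out replicate 1 of XX E12.5 gave the widest step, -0.43. Each step differed between the sexes, by 1.53, 1.45 and 1.83, and the middle one was not called on log2(TPM + 1) (0.54, adjusted p = 0.078).

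RUNX1 is also a factor of blood and immune cells, whose markers were higher in the XX sort. All 10 immune markers were called higher in XX at all 4 stages. Their summed level in XX was 223 to 578, 88.6 to 92.6, 62.1 to 79.5 and 48.0 to 62.4 TPM in order of stage, while the XX mean of Runx1 stayed between 66.5 and 82.8 CPM. In XY all 10 were under 1 TPM in every library, and the pan-leukocyte gene Cd53 was listed at 0 from E11.5 to E13.5, while Runx1 fell from 40.4 to 1.36 CPM. The part of immune cells in the sex difference of Runx1 was not tested. The make-up of the XY sort also changed over the first step. The 8 interstitial markers summed to 248 to 450 TPM at XY E11.5 and 12.3 to 13.8 TPM at XY E12.5. The Sertoli genes summed to 1635 to 2975 TPM and 9274 to 9912 TPM in these groups. Their part in the first XY fall of Runx1 was not tested. The genes most like Runx1 over the 8 group means were Apoe (r = 0.990), Sfxn1 (r = 0.989) and Gabra4 (r = 0.988), and its r with Foxl2 was 0.780.

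The other Runx genes were near the limit of detection. Runx2 (chr17:44495987-44814797, minus strand), known as the regulator of bone formation, had group means of 0.164 to 0.589 CPM. Its XX minus XY log2 differences of 0.30, 0.52, 1.05 and 1.61 were not called at any stage (adjusted p = 0.763, 0.594, 0.287 and 0.0947), nor was any change over stages. Runx3 (chr4:135120652-135177990, plus strand), known from T cells and sensory neurons, had 0 to 4 counts in each library and was not tested. At E15.5 the 3 XX libraries of Runx2 lay above the 3 XY libraries (3.04-fold), on 5 to 16 counts in XX and 3.11 to 4.19 in XY.

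**Figure D2:**
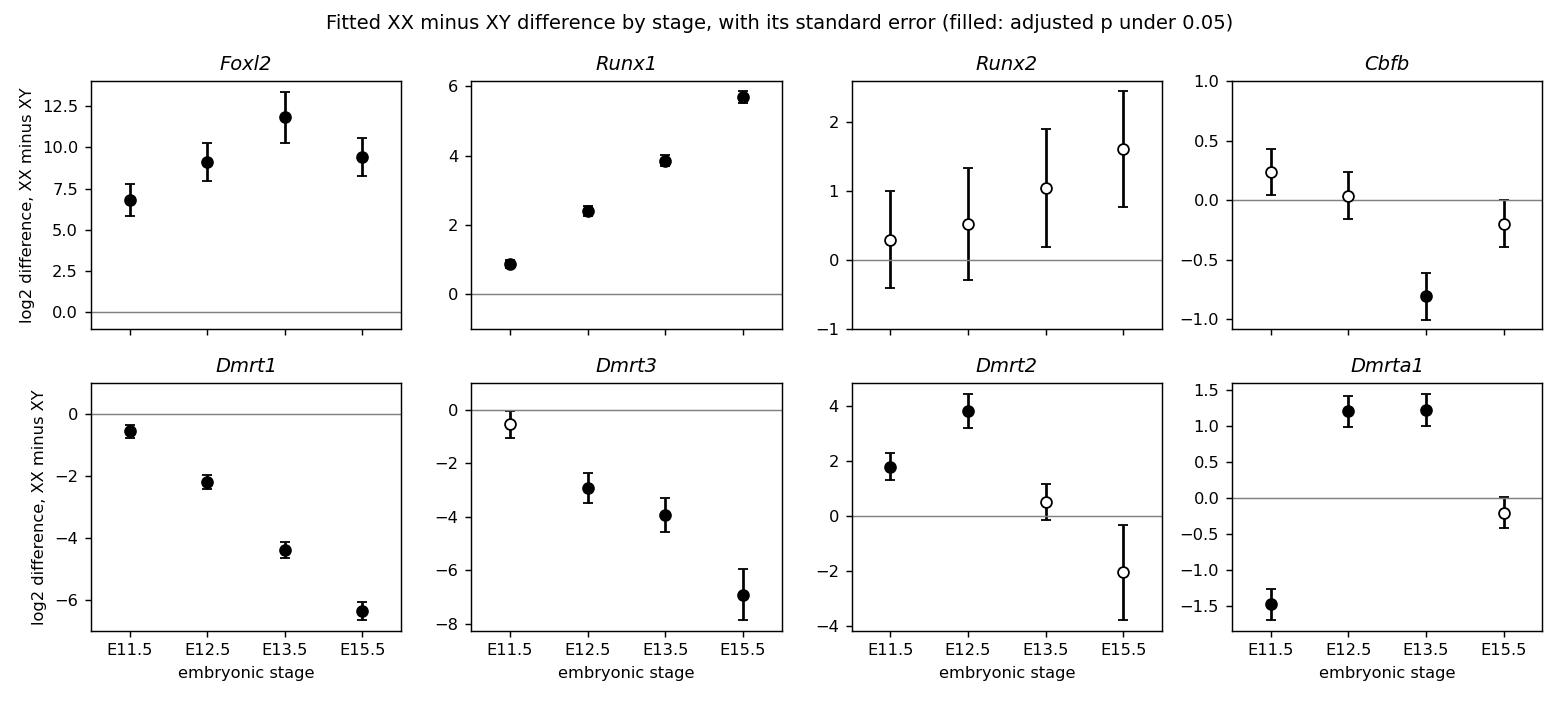
Fitted XX minus XY log2 difference (vertical axis, a different range in each panel) of the 8 genes tested at the 4 embryonic stages, with bars of 1 standard error and filled points where the adjusted p was under 0.05. The difference of Runx1 rises from 0.87 to 5.69, that of Dmrt1 falls from -0.55 to -6.35, and that of Dmrta1 goes from -1.48 at E11.5 to 1.21 at E12.5 and back to -0.21 at E15.5.

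The 3 Runx genes, whose RNA levels differed widely, share a stretch of sequence near a start site. In RefSeq promoter windows of GRCm38.p6 (250 bases before to 50 after the start), the longest run common to one window each of Runx1, Runx2 and Runx3 was sought. It had 18 bases. It is printed below 5' to 3' in capitals inside 30 bases, and it holds the letters ACCACA, the reverse complement of the RUNX core TGTGGT, in 2 copies.
Runx1 distal: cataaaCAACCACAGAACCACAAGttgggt
Runx2: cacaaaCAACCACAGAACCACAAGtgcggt
Runx3 distal: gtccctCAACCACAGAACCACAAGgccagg
The Runx1 stretch lies at chr16:92826025-92826054 (minus strand, the run beginning at base 27 after the start) in an exon that GENCODE annotates as untranslated. The Runx2 stretch lies at chr17:44814583-44814612 (minus strand, base 22 after the start) in an exon of Runx2, and the Runx3 stretch at chr4:135120503-135120532 (plus strand, 136 bases before the start) with no annotated feature. The run was found in 4 of 32851 windows (0.0122%), which belonged to these 3 genes and Gm16225. It was picked for lying in the windows of these 3 genes, so its rarity is no finding about them. TGTGGT or its complement was in 14.0% of the 250-base stretches before a start and 16.8% of the 300-base windows. Neither form of the core was in the proximal windows of Runx1 and Runx3, nor in those of Cbfb, Dmrt2, Dmrt3, Dmrta1, Foxl2 and Foxl2os, and the forkhead core TGTTTAC (3.65% of windows) was in none of those or the windows printed. A window was given for 8 of the 9 genes, Dmrt1 being the other. A match describes letters only and says nothing of binding.

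Cbfb (ENSMUSG00000031885, chr8:105170674-105217989, plus strand), the shared non-DNA-binding subunit, was abundant in both sexes and differed far less than Runx1. Levels in XX were 95.1, 89.9 and 129 CPM (E11.5), 49.0, 52.1 and 51.9 CPM (E12.5), 32.9, 27.7 and 34.5 CPM (E13.5) and 40.5, 43.2 and 48.1 CPM (E15.5). Levels in XY were 62.9, 85.9 and 117 CPM, then 45.7, 50.8 and 52.5 CPM, then 43.9, 51.3 and 70.5 CPM, and last 59.3, 52.0 and 40.0 CPM. Both sexes were highest at E11.5, and the sexes overlapped at every stage but E13.5.

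Cbfb was 1.74-fold higher in XY at E13.5 (log2 XX minus XY -0.81, SE 0.20, adjusted p = 0.00132) and not called at the other stages (0.24, 0.04 and -0.20), though the E11.5 difference was called without replicate 3 of XY E11.5 (0.51, adjusted p = 0.0408). It fell from E11.5 to E12.5 in both sexes, by 1.04 in XX (adjusted p = 0.000476) and by 0.84 in XY (adjusted p = 0.0012) on the log2 scale. A further fall by 0.69 to E13.5 was called in XX (adjusted p = 0.0113) and not without replicate 2 of XX E13.5 (0.0738). The difference between the sexes in this step (-0.84, adjusted p = 0.0305) was lost without replicate 2 or 3 of XX E12.5, replicate 2 of XX E13.5, replicate 1 of XY E12.5 or replicate 3 of XY E13.5 (adjusted p from 0.0576 to 0.0911). The change of the sex difference with stage (adjusted p = 0.0123) was likewise lost without replicate 2 of XX E13.5 (0.0547) or replicate 3 of XY E13.5 (0.0545). From E13.5 to E15.5 in XX, Cbfb rose by 0.48 with no overlap, which was not called (adjusted p = 0.0858). With only the libraries compared this rise was called (0.47, adjusted p = 0.0055).

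Set against its partners on the TPM scale, which accounts for transcript length, Cbfb ended in large excess in XY. The ratio of Cbfb to the summed TPM of the 3 Runx genes was 2.56 ± 0.434, 1.04 ± 0.117, 0.939 ± 0.129 and 1.09 ± 0.145 in XX and 3.48 ± 1.38, 5.01 ± 0.637, 16.3 ± 3.5 and 40.6 ± 13.51 in XY (SD, n = 3 each) in order of stage. Only at E11.5 did the sexes overlap. Over the 12 libraries of each sex, the mean log2 ratio was 0.35 in XX and 3.33 in XY, a difference of -2.98 (exact two-sided permutation of sex labels within stage, 160000 assignments, p = 6.25e-05).

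In XY the denominator of that ratio moved more than Cbfb itself, while in XX Cbfb moved more. Mean Cbfb was 63.8, 31.9, 17.6 and 23.8 TPM in XX and 55.95, 28.8, 31.7 and 29.7 TPM in XY, in order of stage. Summed Runx RNA was 25.0, 31.0, 18.8 and 22.0 TPM in XX and 16.5, 5.84, 1.96 and 0.810 TPM in XY. Runx1 made up 98.8 to 99.4% of it in every XX group, and 98.7, 96.8, 94.2 and 86.8% in XY. The mean share over the 4 stages was 4.86 percentage points higher in XX (exact two-sided permutation within stage, p = 0.002425). The sexes overlapped in this share at every stage but E15.5. In XY E15.5 summed Runx RNA was only 0.49 to 1.22 TPM per library, with Runx2 at 3.11 to 4.19 counts and Runx3 at 0 to 4.

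**Figure D3:**
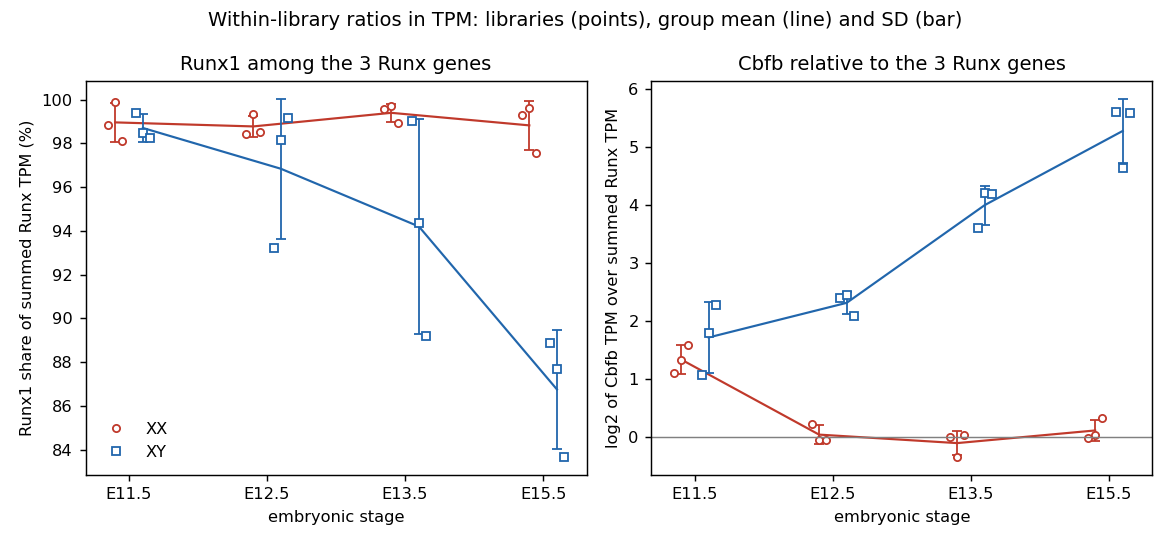
Share of Runx1 in the summed TPM of Runx1, Runx2 and Runx3 in percent (left) and log2 of Cbfb TPM over that sum (right) at the 4 embryonic stages, with circles for XX and squares for XY libraries, lines through the group means and bars of 1 SD (n = 3). XX libraries stay near 99% and near a log2 ratio of 0 from E12.5 on, while at E15.5 the XY libraries average 86.8% and a Cbfb to Runx ratio of 40.6.

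Dmrt1 (ENSMUSG00000024837, chr19:25505618-25604329, plus strand) ran opposite to Runx1, held in XY and lost in XX. XX libraries gave 61.0, 29.99 and 56.1 CPM (E11.5), 17.9, 21.2 and 32.8 CPM (E12.5), 5.41, 6.23 and 6.49 CPM (E13.5) and 1.48, 1.13 and 1.38 CPM (E15.5). XY libraries gave 72.3, 81.6 and 61.0 CPM, then 89.3, 109 and 128 CPM, then 117, 126 and 136 CPM, and last 116, 99.4 and 109.7 CPM. The sexes touched at E11.5, where the highest XX library reached the lowest XY library, and were apart at each later stage.

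The XY mean was 1.46-fold, 4.55-fold, 20.9-fold and 81.4-fold that of XX in order of stage. The log2 XX minus XY difference at E11.5, -0.55 (SE 0.21, adjusted p = 0.0424), was near the threshold and was the one called sex difference that any alternative ended. It was lost with all libraries kept under DESeq2 (-0.52, adjusted p = 0.0523), with DESeq2 size factors (0.0546) and with at least 10 counts in every library (0.0573). With only the libraries compared it was lost too (adjusted p = 0.19). It was also lost when any of 11 single libraries was left out, 9 of which left it between -0.53 and -0.56. Without replicate 2 of XX E11.5 it was -0.29 (adjusted p = 0.215, a 1.22-fold difference) and without replicate 2 of XY E11.5 it was -0.45 (adjusted p = 0.139). From E12.5 on the differences were -2.19 (SE 0.22, adjusted p = 3.1e-08), -4.38 (SE 0.25) and -6.35 (SE 0.30, adjusted p = 1.76e-13). In XX, Dmrt1 fell at each step by 1.03, 1.98 and 2.19 on the log2 scale (adjusted p = 0.00114, 7.56e-06 and 6.06e-05), 36.9-fold in all. The first of these falls was not called with only the libraries compared (-1.06, adjusted p = 0.086), and the XX libraries of E11.5 and E12.5 overlapped. A rise of 0.61 over the first XY step (adjusted p = 0.0199) was lost without replicate 1 or 3 of XY E11.5 or replicate 2 or 3 of XY E12.5 and in 4 other alternatives, and the later XY steps were not called. The steps differed between the sexes throughout, by -1.64, -2.19 and -1.96.

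Within XX, the balance between female-high and male-high factors turned over the stages. In TPM, the ratio of Foxl2 to Dmrt1 within XX libraries was 0.0302, 0.836 and 0.0596 in replicates 1, 2 and 3 of E11.5, the second far from the others, and 0.877 ± 0.285, 2.39 ± 0.586 and 21.6 ± 0.852 at the later stages (SD, n = 3 each). Foxl2 was below Dmrt1 in 3 of 3 libraries at E11.5, above it in 1 of 3 at E12.5 and above it in all 3 from E13.5 on. Runx1 to Dmrt1 went from 0.790 ± 0.251 through 1.85 ± 0.460 and 4.98 ± 0.360 to 26.7 ± 4.0 in XX, and from 0.315 through 0.0822 and 0.0229 to 0.0103 in XY. Runx1 was the more abundant of the female-high pair in every XX group, with a Runx1 to Foxl2 ratio of 20.9, 1.29 and 11.01 in the E11.5 libraries, 2.15 and 2.14 at the middle stages and 1.24 ± 0.238 at E15.5. The genes most like Dmrt1 over the 8 group means were Ndor1 (r = 0.996), Ctnna3 (r = 0.991) and Zswim8 (r = 0.991).

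**Figure D4:**
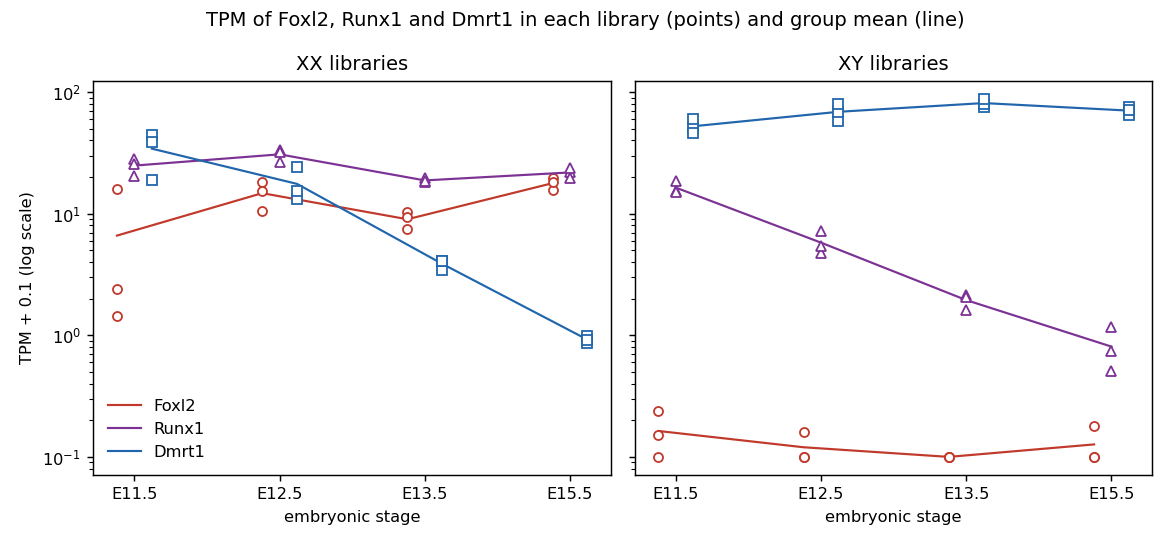
Foxl2, Runx1 and Dmrt1 in TPM plus 0.1 (vertical axis, log scale) at the 4 embryonic stages in XX (left) and XY libraries (right), with points for libraries and lines through the group means. In XX the Dmrt1 line starts above both others at 34.2 TPM and ends below them at 0.820 TPM, while in XY Dmrt1 stays the highest of the 3 and Foxl2 stays at or near 0.

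Dmrt3 (chr19:25610301-25623921), a DM-domain gene known from spinal cord interneurons, starts 5971 bp beyond the end of Dmrt1 and was read at a much lower level with a like pattern (r = 0.951 with Dmrt1 over the 8 group means). XX values were 2.51, 0.321 and 2.20 CPM (E11.5), 0.466, 0.409 and 0.835 CPM (E12.5), 0.148, 0.083 and 0.680 CPM (E13.5), and 0, 0 and 0.0445 CPM (E15.5). XY values were 2.01, 3.15 and 2.01 CPM, then 3.13, 3.97 and 5.99 CPM, then 3.43, 4.02 and 5.22 CPM, and last 3.25, 2.53 and 3.61 CPM. The sexes overlapped at E11.5 (log2 difference -0.53, adjusted p = 0.418) and were apart afterwards.

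Dmrt3 was higher in XY by 7.65-fold at E12.5 (log2 XX minus XY -2.93, adjusted p = 0.000103), 13.9-fold at E13.5 (-3.94, adjusted p = 1.57e-05) and at least 15.8-fold at E15.5, where XX held at most 1 count per library. The test over stages was called in XX (adjusted p = 0.000103) and not in XY (adjusted p = 0.307), and the difference between the sexes in the first step was called at -2.39 (adjusted p = 0.0139, and 0.0624 without replicate 1 of XX E11.5). The first XX step by itself, -1.53 (adjusted p = 0.0421), was lost in 12 of the alternatives, and was -2.04 (adjusted p = 0.00103) without replicate 2 of XX E11.5.

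Dmrt2 (chr19:25672411-25678991), a DM-domain gene known from somite and cartilage development, lies 48489 bp beyond Dmrt3 in the same cluster but was higher in the other sex. The XX libraries held 1.87, 1.97 and 1.30 CPM (E11.5), 1.94, 2.18 and 0.527 CPM (E12.5), 0.370, 0.208 and 0.302 CPM (E13.5) and 0 in all 3 libraries of E15.5. The XY libraries held 0.462, 0.619 and 0.392 CPM at E11.5 and between 0 and 0.319 CPM afterwards. Every XX library lay above every XY library at E11.5 and E12.5, on counts of 12 to 50 in XX. The XY counts were 15 to 24 at E11.5 and 1 to 4 at E12.5, so the E12.5 fold rests on few XY reads.

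The XX mean of Dmrt2 was 3.49-fold that of XY at E11.5 (log2 difference 1.80, SE 0.49, adjusted p = 0.00644) and 14.7-fold at E12.5 (3.81, SE 0.62, adjusted p = 2.55e-05), and the sexes were not called different at E13.5 (0.51, adjusted p = 0.507) or E15.5. It fell in XX by 2.43 on the log2 scale from E12.5 to E13.5 (adjusted p = 0.00283), and at the last stage it was at least 8.65-fold lower than at the first. In XY it fell by 2.16 from E11.5 to E12.5 (adjusted p = 0.00789, and 0.0984 with limma on log2(TPM + 1)). The sex difference in the first step, 2.02 (adjusted p = 0.0499), was lost in 16 of 24 fits with a library left out and in 6 other alternatives, and that in the middle step, -3.30 (adjusted p = 0.0128), without replicate 2 of XY E13.5 (0.0706). The immune marker sum in XX was 223 to 578, 88.6 to 92.6 and 62.1 to 79.5 TPM at the first 3 stages, while mean Dmrt2 was 1.71, 1.55 and 0.293 CPM, and the part of immune cells in this course was not tested.

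The genes flanking this cluster also differed by sex, beside 42.0%, 62.1%, 66.1% and 69.4% of all genes called in order of stage. Kank1, an adaptor of the cell cortex that ends 71121 bp before Dmrt1, was called lower in XX at all 4 stages, with log2 differences of -1.05, -0.67, -0.39 and -0.60 that were widest at E11.5. Smarca2, a chromatin remodelling ATPase 926058 bp beyond Dmrt2, was lower in XX by 1.14, 0.62 and 0.65 on the log2 scale at the first 3 stages and was not called at E15.5 (-0.06).

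Dmrta1 (ENSMUSG00000043753, chr4:89679436-89694772, plus strand), a DM-domain gene outside the cluster, was higher in XY at E11.5, higher in XX at E12.5 and E13.5 and not called different at E15.5. Levels in XX were 23.6, 13.48 and 20.9 CPM (E11.5), 25.7, 26.7 and 26.1 CPM (E12.5), 29.9, 26.7 and 32.6 CPM (E13.5) and 18.5, 20.5 and 19.7 CPM (E15.5). Levels in XY were 74.3, 44.1 and 43.0 CPM, then 7.75, 12.3 and 13.9 CPM, then 13.9, 10.7 and 13.54 CPM, and last 22.8, 23.5 and 21.5 CPM. The sexes did not overlap at any stage, with XY above at E11.5 and E15.5 and XX above between them.

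The XY mean was 2.78-fold that of XX at E11.5 (log2 XX minus XY -1.48, SE 0.21, adjusted p = 1.17e-05). The XX mean was 2.31-fold that of XY at E12.5 (1.21, SE 0.22, adjusted p = 5.99e-05) and 2.34-fold at E13.5 (1.22, adjusted p = 4.42e-05), and the E15.5 difference was -0.21 (adjusted p = 0.398). The first turn came mainly from XY, where Dmrta1 fell 4.75-fold from E11.5 to E12.5 (log2 -2.25, adjusted p = 3.03e-08). In XX the libraries of these stages did not overlap, and the rise of 0.44 was not called (adjusted p = 0.117). Limma on log2(TPM + 1) called this XX rise at 0.61 (adjusted p = 0.0440). In XY Dmrta1 rose by 0.83 from E13.5 to E15.5 (adjusted p = 0.00804, and 0.0618 without replicate 2 of XY E13.5). The first step differed between the sexes by 2.68 (adjusted p = 6.0e-07) and the last by -1.43 (adjusted p = 0.00166). In XX Dmrta1 fell by 0.60 in the last step (adjusted p = 0.0441), a call lost in 7 of the alternatives. The 8 interstitial markers in XY also summed to less at E12.5 (12.3 to 13.8 TPM) and E13.5 (10.8 to 13.3 TPM) than at E11.5 (248 to 450 TPM) and E15.5 (44.5 to 56.9 TPM), and their part in the course of Dmrta1 was not tested.

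These courses changed which DM-domain gene was the most abundant. Dmrt1 made up 76.7 ± 1.95, 55.2 ± 6.41, 23.2 ± 4.48 and 10.8 ± 1.63% of the summed TPM of the 4 DM-domain genes in XX, and 64.9 ± 6.92, 90.7 ± 1.17, 91.4 ± 0.917 and 86.6 ± 1.15% in XY (SD, n = 3 each). Their sum was 44.4 TPM at E11.5 and 7.68 TPM at E15.5 in XX and was between 75.9 and 88.8 TPM in every XY group. The ratio of Dmrta1 to Dmrt1 in XX went from 0.236 through 0.727 and 3.31 to 8.42, so that Dmrta1 was the most abundant of the 4 in XX from E13.5 on, while in XY it was 0.513 at E11.5 and 0.0605 to 0.127 later.

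In the first XX step Cbfb, Dmrt1 and Dmrt3 were called lower and none of the 8 genes higher, beside 34.0% of all genes called, 16.7% higher and 17.3% lower. Cbfb, Dmrt1 and Dmrt2 were called lower in the middle XX step and none higher (31.7% of all genes called, 14.2% higher and 17.4% lower). Dmrt1, Dmrt2 and Dmrta1 were called lower in the last XX step and none higher (25.6%, with 12.8% each way). In that last step mean Foxl2 and Cbfb rose 1.99-fold and 1.39-fold with no overlap of libraries. Both rises were called with only the libraries compared. In XY, 4 genes fell in the first step and Dmrt1 rose (51.9% of all genes called, 27.1% higher and 24.8% lower). Runx1 alone of the 8 fell in the middle XY step (16.6%, with 8.02% higher and 8.62% lower), and Runx1, Dmrt2 and Dmrta1 changed in the last (21.3%), Dmrt2 with a call lost in 7 of the alternatives. Some change over stages was called for 5 of 8 genes in XX (74.0% of all genes) and 5 of 8 in XY (70.3%). The differences between the sexes in a step were called for 5, 4 and 3 genes (40.1%, 25.2% and 25.8% of all genes), and the sex difference changed with stage for 6 of 8 (70.1%), near the share over all genes.

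Genes whose proteins bind RUNX factors or act as their corepressors differed by sex in both directions. Of 12 such genes, all tested, 4, 9, 11 and 11 differed by sex in order of stage, beside 42.0%, 62.1%, 66.1% and 69.4% of all genes. Those higher in XX were 2, 6, 7 and 7 of the 12, beside 21.4%, 30.5%, 32.8% and 34.9% of all genes. The list was thus called less often than all genes at E11.5. Their median log2 differences were 0.13, 0.34, 0.43 and 0.27. Runx1t1, a corepressor of the ETO family, had mean CPM of 65.7, 12.51, 19.3 and 35.8 in XX and 44.8, 0.236, 0.591 and 3.04 in XY. Its log2 difference was 0.55 and not called at E11.5, then 5.67, 4.99 and 3.58. The Groucho-type corepressor Tle3 was higher in XX at all 4 stages (0.44, 2.84, 1.81 and 2.46), while its relative Tle4 was lower at all 4 (-0.73, -1.24, -1.38 and -0.81). Cbfa2t3, another ETO family gene that is also known from blood cells, turned from 3.31 at E11.5 through 1.22 and 0.86 to -1.52 at E15.5.

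Most forkhead relatives that differed were lower in XX, unlike Foxl2. Of 15 tested, 3, 11, 9 and 8 differed by sex in order of stage, of which 1, 1, 2 and 2 were higher in XX, beside 42.0%, 62.1%, 66.1% and 69.4% of all genes called, so that the list was called less often than all genes but for E12.5. The list had medians of -0.06, -0.59, -0.40 and -0.31. Foxc1, a mesenchymal forkhead gene, was lower in XX at all 4 stages (-1.11, -4.21, -3.51 and -3.74), as was Foxo4, a FOXO factor of the insulin pathway (-0.48, -1.82, -3.11 and -2.87). Foxp1 was the forkhead gene higher in XX at 3 stages (0.86, 1.41 and 2.02 from E12.5 on, with 0.30 at E11.5 not called). Foxm1, a factor of cell division, was lower in XX from E12.5 on (-1.27, -1.48 and -2.82). With only the 6 libraries of E11.5 in the fit, 1 of the RUNX partners and 0 of the forkhead relatives were called at that stage.

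**Figure D5:**
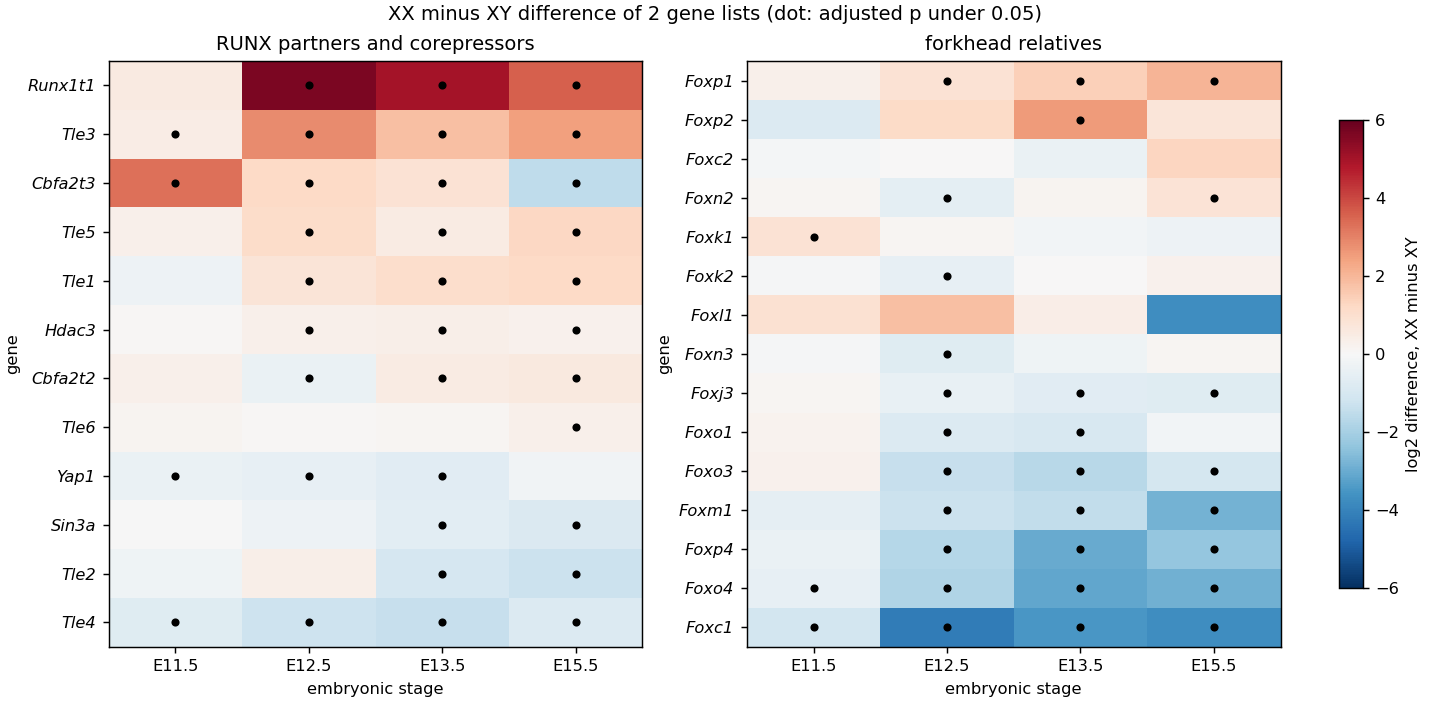
Fitted XX minus XY log2 difference (colour, red for higher in XX, blue for higher in XY) of 12 RUNX partners and corepressors (left) and 15 forkhead relatives (right) at the 4 embryonic stages, with a dot where the adjusted p was under 0.05. Runx1t1 and Tle3 are the deepest red from E12.5 on among RUNX partners, and Foxc1 and Foxo4 are the deepest blue from E12.5 on among the forkhead relatives called.

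Outside the 9 genes, 2 of the other 5 DM-domain genes in the list passed the count filter. Dmrtc1a was called higher in XX from E12.5 on (log2 1.54, 1.46 and 1.37) and not at E11.5 (0.08). Dmrtc2, known from germ cells, was higher in XX at E13.5 (3.61) and E15.5 (4.36). The summed germ cell markers were also highest in XX at E15.5, at 127 to 196 TPM against 12.8 to 19.9 TPM at XX E11.5 and 62.5 to 107 TPM at XY E15.5, with Nanos2 listed at 0 in every XX library. Their part in the level of Dmrtc2 was not tested.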

How the data were processed

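The 24 libraries (8 groups of 3) were analysed from 2 kinds of deposited values: estimated counts per gene symbol (17.5% of them not whole numbers) and TPM, both made by the authors. The genome build was mm10, per the submitters' processing notes; the aligner, the counter and the use of strand are not given in the sources used here. Total counts were 11275277 to 37256871 per library. The estimated counts were rounded and tested with edgeR 4.0.16 (R 4.3.3): quasi-likelihood fits with robust dispersion, 8 group means over all 24 libraries (16 residual degrees of freedom, biological coefficient of variation 17.4%), trimmed-mean scaling, edgeR's default expression filter with a minimum count of 10, leaving 16190 of 32040 genes, and Benjamini-Hochberg adjustment over all of these, called under 0.05. The fit was tested on simulated counts. Folds are ratios of mean CPM. Where every library of a group had at most 3 counts, the level of 3 counts replaced the group mean and the fold is a lower bound. Levels between genes were compared in TPM.

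All 9 genes were described. Any gene of the fixed lists could be named, and for Foxl2, Runx1 and Dmrt1 the 3 genes of highest Pearson r over 8 group means of log2(CPM + 1) were named, among genes with at least 10 CPM in 1 group and without a Gm, Rik or -ps symbol. The 9 genes and the lists were chosen with earlier results of these data known. Alternatives were DESeq2 1.42.0, limma 3.58.1 on log2(TPM + 1) and log2(TPM + 0.1), another or no count filter, only the libraries compared, a replicate block and each library left out. Coordinates are GENCODE M21 (GRCm38) and promoter windows RefSeq (GRCm38.p6). The counting precision of a library covers counting error only. Correlations between same-numbered replicates of the groups compared ran from -0.193 to 0.351. All 3 were over 0.1 in 1 of 10 comparisons, XX with XY at E11.5 (0.169, 0.132 and 0.351), with no label naming what a number shares; there the replicate block called the same number of the 8 genes, 5, and changed the call of none. Elsewhere the numbers were not treated as pairs.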

Additional observations from a re-analysis of the deposited data

Results flagged for a closer look

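The XX minus XY difference changed with stage for 6 of the 8 genes tested, by the test of the sex-by-stage interaction (edgeR quasi-likelihood test, adjusted over all genes, which called 70.1% of them). The adjusted p was 1.5e-12 for Runx1, where XY fell at each step and no XX step was called. For Dmrt1 it was 2.11e-10, where XX fell at each step with all libraries in the fit. It was 2.34e-07 for Dmrta1, whose direction turned between E11.5 and E12.5, and 0.000272 for Dmrt3. Dmrt2, on low counts, gave 0.0112. Cbfb gave 0.0123, and above 0.05 without replicate 2 of XX E13.5 (0.0547) and without replicate 3 of XY E13.5 (0.0545).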

How the results depend on the processing

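Of 774 values of the 8 genes under alternatives other than a single library left out, 715 kept their direction and side of the threshold, 38 fell below it, 21 rose past it and 0 reversed. These include the fits of only the libraries compared. Of 2328 values with a library left out, 2245 kept both, 62 fell below, 18 rose past and 3 reversed, none of them called with all libraries: Runx2 at E11.5 (-0.27 to 0.92 over the left-out libraries, below 0 without replicate 3 of XX E11.5 and, at -0.14, without replicate 1 of XY E11.5) and Dmrt2 at E15.5 (-2.43 to 0.0, the latter without replicate 1 of XY E15.5). Leaving out single libraries gave 2540 to 5429 genes called from E13.5 to E15.5 in XX (4144 with all; 2726 without replicate 1 of XX E13.5, 2540 without replicate 3 of XX E15.5) and 1503 to 3785 from E12.5 to E13.5 in XY (2694 with all; 1503 without replicate 2 of XY E12.5, 1626 and 1606 without replicates 2 and 3 of XY E13.5). Among the 8 genes, left-out libraries gave 2 to 5 called from E13.5 to E15.5 in XX (3 with all, 5 without replicate 2 of XX E11.5), 1 to 3 in XY (3 with all, 1 without replicate 2 of XY E13.5) and 3 to 6 for the sex difference in the first step (5 with all, 3 without replicate 1 of XX E11.5).

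Fitting only the libraries compared called 2718 genes in place of 6803 for XX minus XY at E11.5, 1176 in place of 5505 and 1 of the 8 genes in place of 3 from E11.5 to E12.5 in XX, 4317 in place of 2694 from E12.5 to E13.5 in XY and 6111 in place of 3448 from E13.5 to E15.5 in XY. The cause was not tested, and differences between steps could not be fitted that way. Requiring at least 10 counts in every library, which left fewer of the genes tested, called 2, 3 and 2 for XX minus XY at E11.5, E12.5 and E15.5, 3 from E11.5 to E12.5 in XY, 3 for the sex difference in that step and 3 for any change in XX. Limma on log2(TPM + 1) called 3 from E11.5 to E12.5 in XY and 3 for any change in XY, and with all genes above 0 called 3 for both and 3 for the sex difference in the first step. The cause was not tested.

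TPM scaling moved the median of all genes by up to 0.29 on the log2 scale, and limma on log2(TPM + 1) moved the share of calls that were positive from 50.9 to 39.7% (XX minus XY at E11.5), 49.2 to 62.5% (E12.5), 49.1 to 66.6% (first step in XX), 45.0 to 18.9% (middle step in XX), 52.2 to 35.3% (first step in XY), 48.8 to 70.7% and 45.1 to 20.9% (sex difference in the first and middle steps). The replicate block gave 6761 genes called in place of 6803 at E11.5 and moved no count of calls by over 1.5 times. Under the block Dmrt2 lost its first step difference (1.90, adjusted p = 0.0577), as in 21 other alternatives, and Dmrt3 gained its last XX step (adjusted p = 0.0497). Counts per library were 0 to 4 for Runx3, 0 to 29.89 for Runx2 and 0 to 8 for Dmrt2 from E13.5 on.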
